A study of Mus musculus with 9 samples.

Results

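Lymphocyte genes were examined in the epididymal fat of mice that carry a transgene for Tm5NM1, a cytoskeletal tropomyosin. The set holds 40 gene symbols of 3 classes: 25 genes of T and cytotoxic cells, 9 genes of B cells and 6 genes shared by both lineages. Members were the probes that carry one of these symbols in the platform annotation. 75 probes named 35 of the 40 genes, out of 19057 named genes on the array; Lck, Il2rg, Gzma, Tcf7 and Cd79a were not analysed here. RNA had been measured on Illumina mouse bead arrays, 1 per mouse, in 9 FVB/N mice aged 3 months and fasted for 14 to 16 h. The 5 mice labelled tg/tg (165, 152, 147, 163 and 164) were Tm5NM1 transgenic, and the 4 labelled wt/wt (141, 142, 143 and 159) were wild type. The sources used here give neither the promoter that drives the transgene nor the number of founder lines.

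T cells recognise antigen through a receptor that signals by the CD3 chains, helped by the coreceptors CD4 and CD8. B cells do so through a membrane antibody that signals by CD79A and CD79B. Fat holds resident T cells, B cells, natural killer cells and innate lymphoid cells among its adipocytes and macrophages, and visceral fat also holds small lymphoid clusters in which the chemokine CXCL13 gathers B cells.

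The adipocyte gene Adipoq read 15.80 to 16.01 on the normalized log2 scale in all 9 mice, and the macrophage marker Adgre1 read 9.43 to 10.96. Other adipocyte markers varied more than Adipoq: Fabp4 read 8.12 to 10.37 and Lep 13.81 to 15.37. The mean level of the 7 measured adipocyte markers was 11.75 to 12.74 by mouse. Of these markers 5 read higher and 2 lower in transgenic fat (median log2 difference 0.11). The arrays detected 22239 to 23313 of 45281 probes at a detection p under 0.05. Median signal before normalization was 142 to 147 in wild-type mice 142, 143 and 159 and 169 to 192 in the other 6 mice, so it largely followed genotype. Arrays correlated with r between 0.903 and 0.990. Genes of epididymal epithelium, 11 in number, were present to very different degrees: their mean level was 5.12 to 9.26 in transgenic mice, highest in mouse 152, and 12.06 to 14.83 in wild-type mice. Endothelial markers read higher in transgenic fat at 7 of 7 genes (median log2 difference 0.42) and mesothelial markers lower at 9 of 9 (median -0.83), with none called in either list. Over all measured genes 56.5% read higher. The mesothelial genes did not vary as 1 group. Their top mouse was transgenic mouse 152 at 3 genes (Krt8, Krt18 and Krt19) and transgenic mouse 165 at 1 (Msln). It was wild-type mouse 142 at 3 and wild-type mouse 143 at 2. Macrophage markers had a mean level of 10.69 ± 0.39 (SD, n = 5) in transgenic and 10.72 ± 0.15 (SD, n = 4) in wild-type fat.

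No lymphocyte gene passed the test between genotypes (limma with Benjamini-Hochberg adjustment over all kept probes, threshold 0.05), and neither did any other gene in the higher direction. Of 12171 measured genes, 0.107% were called, every one of them lower in transgenic fat. 26 of the 35 lymphocyte genes were measured, which means that a probe was detected on at least 4 arrays; 2 of these, Pou2f2 and Dock2, got there through transgenic arrays alone. Among the 26, 21 read higher and 5 lower in transgenic fat, with a median log2 difference of 0.52, while 56.5% of all measured genes read higher and their median was 0.04. At an unadjusted p under 0.05, 5 members were higher (Nkg7, Cd27, Pou2f2, Tnfrsf14 and Dock2) and 1 was lower (Lef1), against 5.55% and 3.5% of all measured genes. The genotypes did not overlap at 3 members, all higher (Nkg7, Pou2f2 and Tnfrsf14), against 1.96% of all genes in that direction and 1.37% in the lower one, where no member stood. The set was chosen with such results known, so these counts describe it and are no test of it. In RNA of whole tissue, fewer cells of a type and less RNA per cell cannot be told apart.

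**Figure D1:**
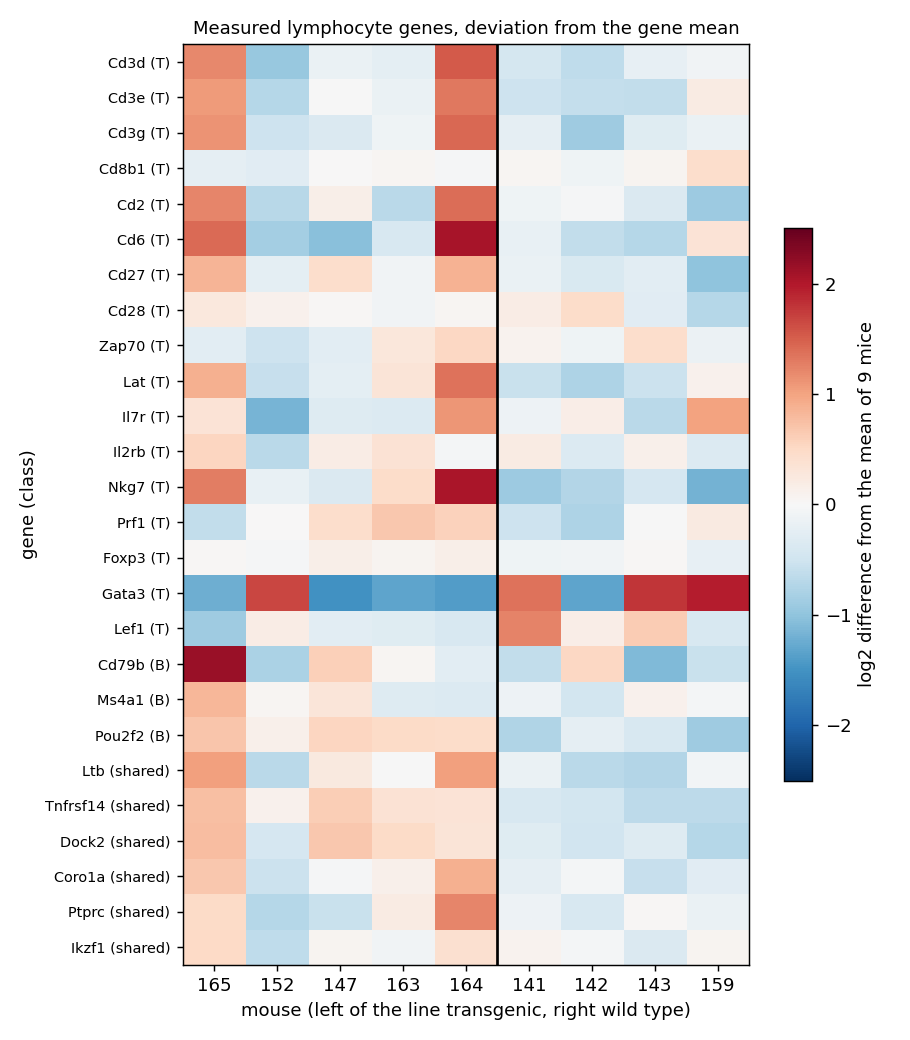
Each measured lymphocyte gene (rows, with its class) in each mouse (columns) as the log2 difference from that gene's mean over the 9 mice, red above and blue below the mean. Transgenic mice 164 and 165 hold the top values in 8 of the 17 T rows and mouse 165 in the 3 B rows, while Gata3 runs apart from the others.

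The signalling chains of the T cell receptor were higher in transgenic mice 164 and 165 than in every other mouse, and in the remaining transgenic mice they lay near the wild-type range. Cd3g, a CD3 chain, read 8.95 (mouse 165), 7.32 (152), 7.47 (147), 7.74 (163) and 9.27 (164) in transgenic fat and 7.61 (141), 6.96 (142), 7.53 (143) and 7.66 (159) in wild-type fat. Cd3e, another chain, read 8.01, 6.24, 6.95, 6.79 and 8.28 in the transgenic mice in the same order and 6.44, 6.36, 6.34 and 7.15 in the wild-type mice. Both genes had their top values in mouse 164, with mouse 165 next, and the other 3 transgenic mice overlapped wild type. Cd3d, a further chain, read 7.97, 5.82, 6.61, 6.53 and 8.31 against 6.33, 6.15, 6.58 and 6.69. Mouse 152 held the lowest value of all 9 for Cd3d and Cd3e. The means were 8.15 ± 0.90 (SD, n = 5) against 7.44 ± 0.33 (SD, n = 4) for Cd3g, a log2 difference of 0.71 with a 95% confidence interval of -0.20 to 1.62 (limma adjusted p = 0.618). Cd3e differed by 0.68 (interval -0.22 to 1.58, adjusted p = 0.629) and Cd3d by 0.61 (interval -0.42 to 1.64, adjusted p = 0.709). A second Cd3e probe gave 0.69. The spread among transgenic mice was thus larger than the difference between genotypes for all 3 chains.

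The CD3 genes lie together on chromosome 9, where the start sites of Cd3g and Cd3d are 1355 bases apart on opposite strands and Cd3e starts 27825 bases from Cd3d. Their promoters are shown because their transcripts varied together from mouse to mouse. Those of Nkg7 and Tnfrsf14 were taken from the members at which the genotypes did not overlap. The promoter of Pou2f2, another such member, is not shown. Each window runs from 250 bases before the start site to 50 after it and is written 5′ to 3′ on the gene's strand (RefSeq, GRCm38.p6). The Cd3g window is chr9:44980382-44980681 (minus strand), Cd3d chr9:44981536-44981835 (plus) and Cd3e chr9:45009562-45009861 (minus). The Nkg7 window is chr7:43436888-43437187 (plus) and the Tnfrsf14 window chr4:154928028-154928327 (minus). Capitals mark 4 short words that were searched on both strands, so some appear as their reverse complement. The word CAGGAA is part of the motif of ETS factors. Ikaros factors have TGGGAA as the centre of their motif. The TCF and LEF factors bind sites with CTTTGA in them. Finally, GATA factors such as Gata3 bind AGATAA.
Cd3g: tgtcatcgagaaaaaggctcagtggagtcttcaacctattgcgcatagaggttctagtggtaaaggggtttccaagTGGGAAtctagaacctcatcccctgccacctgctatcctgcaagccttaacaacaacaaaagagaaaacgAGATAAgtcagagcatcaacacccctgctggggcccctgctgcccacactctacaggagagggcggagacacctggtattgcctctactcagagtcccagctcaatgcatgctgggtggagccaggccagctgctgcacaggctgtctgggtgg
Cd3d: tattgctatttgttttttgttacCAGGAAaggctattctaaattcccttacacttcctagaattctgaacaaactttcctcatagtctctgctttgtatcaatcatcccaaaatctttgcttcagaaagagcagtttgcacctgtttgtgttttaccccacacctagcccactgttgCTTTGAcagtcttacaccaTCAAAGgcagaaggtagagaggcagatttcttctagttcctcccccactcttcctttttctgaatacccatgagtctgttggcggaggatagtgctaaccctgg
Cd3e: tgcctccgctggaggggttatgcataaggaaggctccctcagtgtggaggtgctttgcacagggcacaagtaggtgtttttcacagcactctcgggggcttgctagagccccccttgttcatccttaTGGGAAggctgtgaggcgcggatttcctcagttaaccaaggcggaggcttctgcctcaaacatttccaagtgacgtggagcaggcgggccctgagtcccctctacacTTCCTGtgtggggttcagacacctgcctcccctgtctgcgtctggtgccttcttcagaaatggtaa
Nkg7: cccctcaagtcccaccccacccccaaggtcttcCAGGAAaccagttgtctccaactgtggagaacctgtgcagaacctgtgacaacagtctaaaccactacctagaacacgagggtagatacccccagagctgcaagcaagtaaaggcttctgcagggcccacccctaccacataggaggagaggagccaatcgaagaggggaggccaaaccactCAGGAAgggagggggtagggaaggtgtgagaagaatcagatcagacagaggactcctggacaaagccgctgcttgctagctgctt
Tnfrsf14: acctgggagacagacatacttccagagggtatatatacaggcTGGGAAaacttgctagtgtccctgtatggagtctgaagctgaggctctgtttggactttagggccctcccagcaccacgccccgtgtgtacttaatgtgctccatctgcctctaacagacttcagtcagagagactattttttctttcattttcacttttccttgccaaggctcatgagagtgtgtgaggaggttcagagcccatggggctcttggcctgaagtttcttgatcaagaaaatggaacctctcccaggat

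The ETS word occurs in Cd3d and Cd3e and at 2 places in Nkg7, and the Ikaros word occurs in Cd3g, Cd3e and Tnfrsf14. The TCF and LEF word occurs at 2 places in Cd3d, and the GATA word occurs in Cd3g. Over 32851 promoters of the same length, the ETS word was in 30.6%, the Ikaros word in 25.6%, the TCF and LEF word in 16% and the GATA word in 11.2%. The table held 42 promoters of 31 lymphocyte members, and 47.6%, 35.7%, 14.3% and 9.52% of these promoters held these words in the same order. The octamer ATGCAAAT, the motif that the B cell factors of the POU2 family bind, was in 1.74% of all promoters and in 0 of the 42. Promoters of the B genes Cd79b, Ms4a1 and Blk were not among the 42. For so rare a word, 0 of 42 is no result about the members. Such short words occur often, and a match is a description of the sequence.

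Coreceptor genes gave a mixed picture, since Cd4 and Cd8a were not detected and the probes of Cd8b1 disagreed. Neither of 2 Cd4 probes nor of 2 Cd8a probes was detected on any array; Cd4 read at most 5.51 and Cd8a at most 5.19. Cd8b1, the other CD8 chain, had a bright probe and a dimmer one. The bright probe stands for the gene by level and read 12.53 to 13.24 in all mice, with a difference of -0.20 (limma adjusted p = 0.697). The dimmer probe, also detected on all 9 arrays, read 7.68 (165), 5.90 (152), 7.25 (147), 6.28 (163) and 9.55 (164) in transgenic mice and 6.41 (141), 6.36 (142), 6.01 (143) and 6.24 (159) in wild-type mice. It was higher in mice 164, 165 and 147 than in every wild-type mouse, and its difference was 1.08 (adjusted p = 0.616). The third Cd8b1 probe was detected in 1 transgenic mouse.

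**Figure D2:**
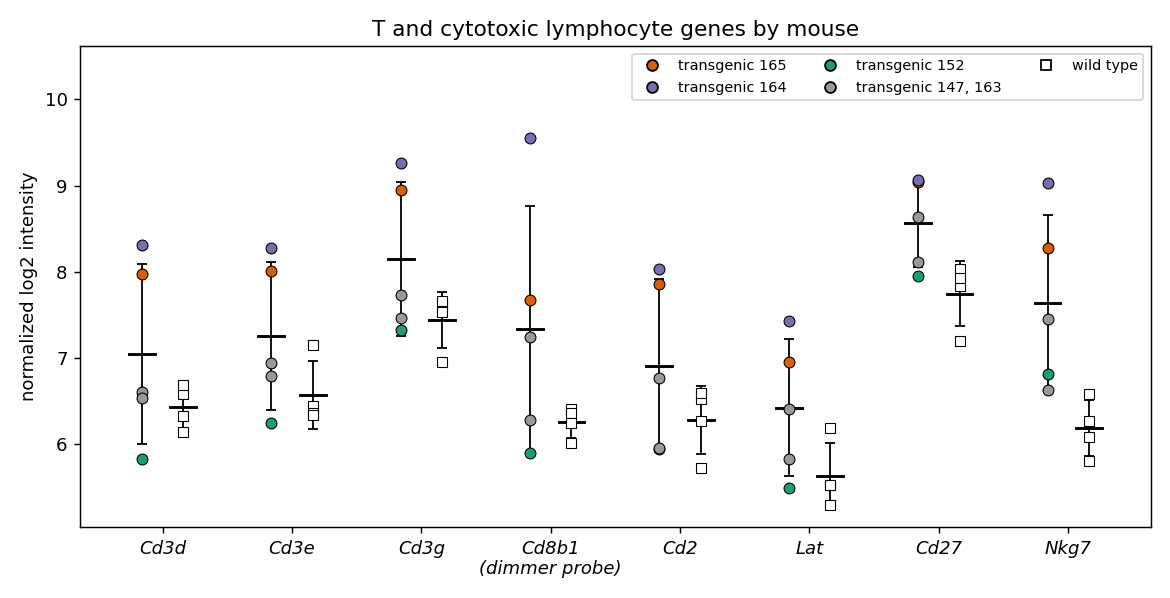
Normalized log2 intensity (y axis) of T and cytotoxic lymphocyte genes in each mouse, transgenic as circles and wild type as squares, with the mean as a line and the SD as bars. The genes drawn are a part of the 17 measured T genes, with Cd8b1 shown by its dimmer probe. Transgenic mice 164 and 165 lie at the top of the genes drawn. Over all 17 they were the top pair at 8. They were not so at Zap70, Il7r, Il2rb, Cd28, Prf1, Foxp3, Gata3, Lef1 or the bright Cd8b1 probe. For Nkg7 every transgenic mouse lies above every wild-type mouse.

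Mice 164 and 165 were also the top pair at 3 of the 4 measured costimulatory and adhesion genes, Cd28 being the exception. Cd2, an adhesion receptor of T and natural killer cells, read 5.94 to 8.03 in transgenic and 5.73 to 6.60 in wild-type fat, with mice 164 and 165 at 8.03 and 7.86 (difference 0.63, limma adjusted p = 0.697). Cd6, a T cell receptor for an adhesion molecule, was detected on 4 arrays, and its measured probe with the higher level read 7.93 in mouse 164 and 7.27 in mouse 165 against 4.81 to 6.21 elsewhere (difference 0.53, adjusted p = 0.833). Its other measured probe differed by 0.55 (limma adjusted p = 0.765). Cd27, a receptor of the TNF receptor family on T cells and memory B cells, read 9.04 (165), 7.96 (152), 8.64 (147), 8.12 (163) and 9.07 (164) in transgenic and 8.03 (141), 7.83 (142), 7.93 (143) and 7.20 (159) in wild-type mice. All transgenic mice but 152 lay above every wild-type mouse. The Cd27 difference was 0.82 (95% confidence interval 0.20 to 1.44, adjusted p = 0.429), whereas a dimmer Cd27 probe differed by 0.14 and the remaining one was not detected. Cd28, the main costimulatory receptor, read 4.81 to 5.99, highest in wild-type mouse 142, and was detected in 2 mice of each genotype (difference 0.16, adjusted p = 0.861). Cd5, an inhibitor of receptor signalling, was not detected on any array.

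Of the signalling and cytokine receptor genes, Lat read higher in transgenic fat by a margin like that of the CD3 chains, while Zap70, Il7r and Il2rb differed by less than 0.20 in either direction. Lat, the adaptor that links the receptor to downstream enzymes, was detected in 4 transgenic mice and 1 wild-type mouse and read 7.43 in mouse 164, 6.96 in mouse 165 and 5.30 to 6.40 in the others (difference 0.79, limma adjusted p = 0.554). Zap70, the kinase recruited by the CD3 chains, read 6.06 to 7.08 with a difference of -0.12 (adjusted p = 0.908), and its dimmer measured probe differed by 0.21. Il7r, the receptor chain for the survival cytokine IL-7, read 6.70 to 8.97, with its 2 top values in transgenic mouse 164 and wild-type mouse 159 (8.97 and 8.86), and differed by -0.17 (adjusted p = 0.933). The top mice of Il7r at this probe were thus 1 of each genotype. No other Il7r probe was detected on enough arrays for the test. One, detected in 2 transgenic mice, read 5.78 in mouse 165 and 5.71 in mouse 164 against 4.77 to 5.06 elsewhere. Another, detected on 3 arrays, read highest in mice 163 (5.91) and 159 (5.85), and the rest were not detected. Il2rb, a receptor chain for IL-2 and IL-15, read 4.94 to 6.14 and was detected on 5 arrays (difference 0.16, adjusted p = 0.871).

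Among cytotoxic genes, Nkg7, a granule membrane protein of natural killer and cytotoxic T cells, had the largest difference in the higher direction within the T class. It read 8.28 (165), 6.81 (152), 6.63 (147), 7.46 (163) and 9.04 (164) in transgenic mice and 6.08 (141), 6.27 (142), 6.59 (143) and 5.81 (159) in wild-type mice. Every transgenic value lay above every wild-type value, the closest being 6.63 in mouse 147 and 6.59 in mouse 143. The means were 7.64 ± 1.01 (SD, n = 5) and 6.19 ± 0.33 (SD, n = 4), a 2.74-fold difference (log2 1.46, 95% confidence interval 0.44 to 2.47) that did not pass over all probes (limma adjusted p = 0.401). Gzmb, a granule protease, was not detected on any array. The brightest probe of Prf1, the pore-forming protein, read 9.78 to 11.22, lowest in mice 142 and 165 (difference 0.49, adjusted p = 0.638), and the other Prf1 probe was detected in 1 transgenic mouse. Mouse 165, the second highest for Nkg7, was thus second lowest for this Prf1 probe at 9.94.

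Transcription factor genes did not follow the receptor genes. Gata3, a factor of helper T cells and innate lymphoid cells that many epithelia also use, read 6.08 (165), 8.97 (152), 5.77 (147), 5.97 (163) and 5.89 (164) in transgenic mice and 8.66 (141), 5.97 (142), 9.08 (143) and 9.26 (159) in wild-type mice. The 4 high mice were wild type apart from transgenic mouse 152, and wild-type mouse 142 lay with the low ones. The difference was -1.70 (95% confidence interval -3.51 to 0.10, limma adjusted p = 0.553). Epididymal genes had a mean level of 9.26 in mouse 152, 14.22 in 141, 14.83 in 143 and 12.41 in 159, but also 12.06 in mouse 142, and their part in the Gata3 signal was not tested. Lef1, a factor of naive T cells, was detected in 1 transgenic and 3 wild-type mice and read 4.68, 5.76, 5.30, 5.25 and 5.17 in transgenic mice 165, 152, 147, 163 and 164. In wild-type mice 141, 142, 143 and 159 it read 6.80, 5.72, 6.20 and 5.17 (difference -0.74, interval -1.45 to -0.03, adjusted p = 0.516), with the genotypes overlapping. The bright probe of Foxp3, the factor of regulatory T cells, read 9.73 to 10.08 in all 9 mice (difference 0.17, adjusted p = 0.665). Another Foxp3 probe was detected in 1 transgenic mouse and the remaining 2 in none. The bright probes of Cd8b1, Prf1 and Foxp3 stood far above the other probes of their genes and did not have mice 164 and 165 as their top pair. Their probe sequences were not used here, so whether these signals come from the named transcripts was not tested.

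Over the T class, 17 of 25 genes were measured, 12 higher and 5 lower, with a median log2 difference of 0.49, which is the value of the bright Prf1 probe. The count includes the bright Cd8b1, Prf1 and Foxp3 probes. This median rested on mice 164 and 165, since it was 0.19 without the first and 0.24 without the second. Mouse 164 gave the highest value of the 9 mice for 10 of the 17 genes (58.8%), whereas over all measured genes it did so for 8.38%. Mice 164 and 165 were the top pair at 8 of the 17 (47.1%, against 6.69% of all genes). They were so too at 10 of 16 further genes found across leukocytes (62.5%). These mice were singled out after their values were seen, and no test was made of them. The macrophage list was also highest in mouse 164, with a mean level of 11.14 against 10.09 to 10.88 in the other mice. The part of such leukocyte content in the T values was not tested.

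**Figure D3:**
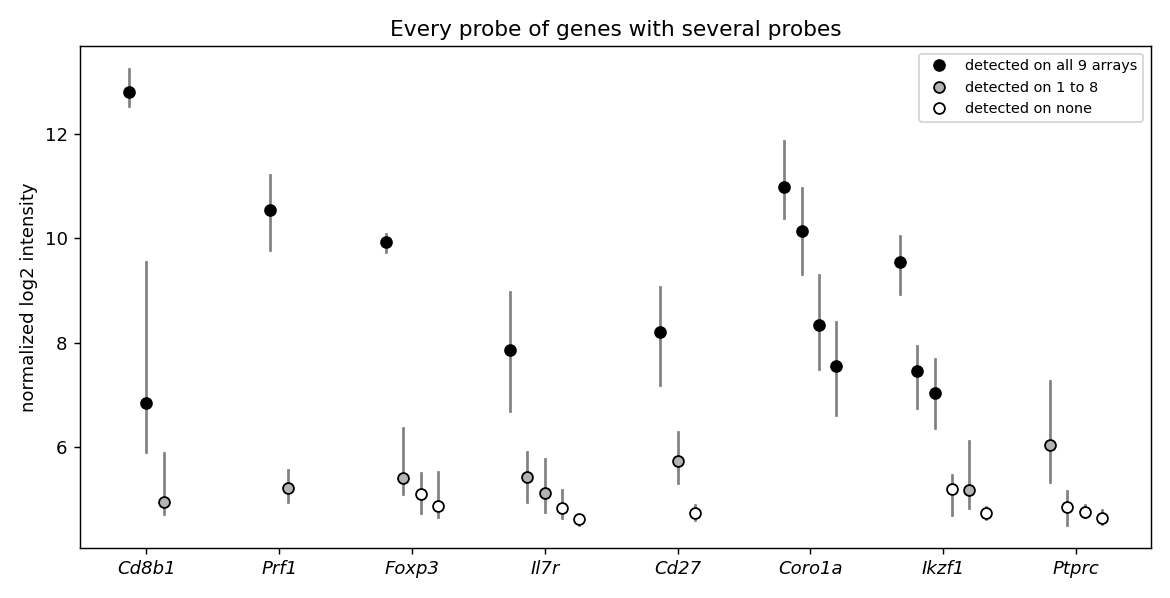
Mean normalized log2 intensity over the 9 mice (points) and the range from the lowest to the highest mouse (lines) for every probe of 8 lymphocyte genes, filled by how many arrays detected the probe. The bright probes of Cd8b1, Prf1 and Foxp3 stand far above the other probes of their genes.

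B cell genes were highest in transgenic mouse 165. Cd79b, a signalling chain of the B cell receptor, read 9.07 (165), 6.13 (152), 7.52 (147), 6.97 (163) and 6.66 (164) in transgenic mice and 6.30 (141), 7.43 (142), 5.80 (143) and 6.35 (159) in wild-type mice. Mouse 165 stood above the others, which overlapped between genotypes. The difference was 0.80 (95% confidence interval -0.42 to 2.02, limma adjusted p = 0.678). A dimmer Cd79b probe, detected in 2 transgenic mice, read 8.28 in mouse 165 and 4.69 to 6.12 elsewhere. Ms4a1, which encodes the B cell surface protein CD20, was detected in 3 transgenic mice and 1 wild-type mouse. It read 6.37 (165), 5.60 (152), 5.85 (147), 5.23 (163) and 5.20 (164) in transgenic and 5.42 (141), 5.09 (142), 5.65 (143) and 5.50 (159) in wild-type mice (difference 0.23, adjusted p = 0.807). Mouse 165 was again the top mouse and the rest overlapped. Pou2af1, the B cell coactivator of octamer factors, was detected on 3 arrays, too few for the test; it read 7.99 in mouse 165, 6.50 in mouse 147 and 4.93 to 5.91 in the others.

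Pou2f2, an octamer-binding factor that is high in B cells and also present in other leukocytes, separated the genotypes without following mouse 165 alone. It read 6.45 (165), 5.87 (152), 6.28 (147), 6.22 (163) and 6.20 (164) in transgenic mice and 4.99 (141), 5.52 (142), 5.35 (143) and 4.87 (159) in wild-type mice. All transgenic arrays detected it and no wild-type array did, so the difference is given as at least 1.45-fold: the transgenic mean over the wild-type mean of, per array, the higher of the probe's value and the lowest detected signal. The measured means were 6.20 ± 0.21 (SD, n = 5) and 5.18 ± 0.30 (SD, n = 4), and the adjusted p of 0.110 from limma missed the threshold. Pou2f2 was kept only through the arrays on which it read high, so this separation and p-value lend no support to a difference. The remaining B genes were near background. The brightest probes of Cd22, an inhibitory receptor, and of Blk, a kinase of the receptor pathway, were each detected in 3 transgenic mice and no wild-type mouse, just short of the 4 arrays required. Both read highest in mouse 165, at 6.36 and 6.58. Pax5, which sets B cell identity, and Jchain, which joins secreted antibodies, were not detected on any array. With 3 of 9 B genes measured, the median difference was 0.80 and was 0.35 without mouse 165. Pou2f2 was measured only through transgenic arrays, so this median was fixed in part by the filter. The 2 other measured B genes, Cd79b and Ms4a1, had a median of 0.52.

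**Figure D4:**
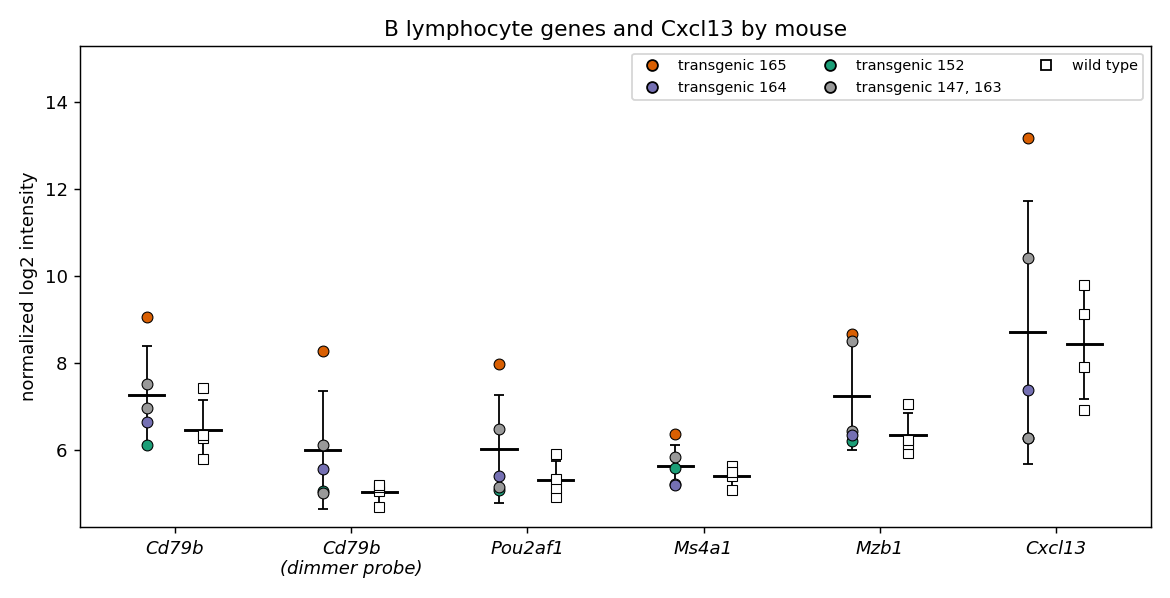
Normalized log2 intensity (y axis) of B cell genes, the plasma cell gene Mzb1 and the chemokine gene Cxcl13 in each mouse, transgenic as circles and wild type as squares, with the mean as a line and the SD as bars. Transgenic mouse 165 is the highest mouse for each of them, for Cxcl13 at 13.17.

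The chemokine gene Cxcl13, from the list for lymph node stroma and named here after its values were seen, varied more than any lymphocyte member. It read 13.17 (165), 6.28 (152), 10.42 (147), 6.29 (163) and 7.38 (164) in transgenic and 6.93 (141), 9.80 (142), 7.93 (143) and 9.14 (159) in wild-type mice (difference 0.26, limma adjusted p = 0.968). Mouse 165, with the top Cd79b, Ms4a1 and Pou2af1 values, thus also had the top Cxcl13 value. Mouse 147 came second for Cxcl13, Cd79b and Pou2af1. Mzb1, a folding helper for antibodies in plasma cells that was also chosen after its values were seen, read 8.68 in mouse 165, 8.51 in mouse 147 and 5.95 to 7.08 in the others. Other measured genes of the lymph node stroma list were not highest in mouse 165. Mfge8, which encodes a secreted bridge to dying cells and is also made by many other cells, was lowest there at 14.56 within a range of 14.56 to 15.91 (difference -0.67, limma adjusted p = 0.403). Madcam1, an adhesion molecule of lymphoid vessels, read 5.21 in mouse 165 within a range of 5.20 to 6.22, and Ccl19, a T cell chemokine, read 7.41 within 5.94 to 8.60. Genes of the same list that were detected on too few arrays for the test did not all follow these. Bst1, detected on 3 arrays, was highest in mouse 165 at 6.61, with 6.20 in mouse 142. The Chst4 probes, each detected on 2 arrays, read 5.99 and 6.47 in mouse 165 and 6.45 and 6.16 in mouse 142. Glycam1 was detected on no array. Cr2, a receptor of mature B cells and follicular dendritic cells, was also detected on no array.

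Genes shared by T and B cells read higher in transgenic fat at all 6 members, by the probe that represents each, against 56.5% of all measured genes. Their median was 0.62, and none was called. For Ikzf1 the direction depended on the probe, at 0.11 for the representing probe and 0.00 and -0.07 for its other measured probes. Dock2 among them was measured only through transgenic arrays, so its higher reading was fixed in part by the filter. Tnfrsf14, a receptor of the TNF receptor family on lymphocytes that binds LIGHT and BTLA, had the lowest adjusted p of the whole set. It read 7.38 (165), 6.73 (152), 7.24 (147), 6.98 (163) and 6.97 (164) in transgenic mice and 6.23 (141), 6.17 (142), 5.97 (143) and 5.97 (159) in wild-type mice. The groups did not overlap, and the spread within each was small. The means of 7.06 ± 0.25 (SD, n = 5) and 6.09 ± 0.13 (SD, n = 4) gave a 1.96-fold difference (log2 0.97, 95% confidence interval 0.63 to 1.32, limma adjusted p = 0.0858). An exact two-sided permutation test over the mice gave p = 0.00794 before any adjustment, the smallest that 126 splits allow. Because the groups did not overlap, this value largely restates that separation and is no further support. Over all measured genes, 1.96% separated in the higher direction. Tnfrsf14 passed in limma when mouse 152 was left out (adjusted p = 0.0293) and when arrays were weighted (adjusted p = 0.0140). It also passed when arrays were not normalized to each other (adjusted p = 0.0224), a setting in which the median of all genes was itself 0.42 higher in transgenic fat. It did not pass in its 16 other alternatives: the log2 difference was 0.45 without background correction (adjusted p = 0.230), and the adjusted p was 0.158 with a trended and robust prior. With the median signal of the array as a covariate the difference was 1.02 and the adjusted p 0.623. Array brightness and genotype largely cannot be told apart in these mice.

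Dock2, an activator of the small GTPase Rac that lymphocytes need to migrate, was detected in 4 transgenic mice and no wild-type mouse. It read 6.42 (165), 5.23 (152), 6.34 (147), 6.14 (163) and 5.98 (164) in transgenic and 5.35 (141), 5.17 (142), 5.33 (143) and 4.95 (159) in wild-type mice. All transgenic mice but 152 lay above wild type, and the difference was at least 1.28-fold (means 6.02 ± 0.48, SD, n = 5, and 5.20 ± 0.18, SD, n = 4, limma adjusted p = 0.356). Without mouse 152 the adjusted p was 0.0474 for Dock2 and 0.0481 for Pou2f2. Since both genes were kept only through the arrays on which they read high, these values lend no support to a difference. Ltb, a membrane anchor for lymphotoxin made by lymphocytes, read 7.03 (165), 5.33 (152), 6.24 (147), 5.99 (163) and 7.04 (164) in transgenic and 5.84 (141), 5.33 (142), 5.27 (143) and 5.94 (159) in wild-type mice (difference 0.73, adjusted p = 0.553). Its top mice were 164 and 165, as for the CD3 genes.

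Coro1a, an actin regulator of leukocytes, read 11.65 (165), 10.44 (152), 10.95 (147), 11.10 (163) and 11.87 (164) in transgenic and 10.75 (141), 10.93 (142), 10.39 (143) and 10.69 (159) in wild-type mice (difference 0.51, limma adjusted p = 0.593). Its other 3 probes differed by 0.26 to 0.45 in the same direction. Ptprc, which encodes the leukocyte antigen CD45, read 6.52 (165), 5.33 (152), 5.49 (147), 6.24 (163) and 7.27 (164) in transgenic and 5.93 (141), 5.65 (142), 6.08 (143) and 5.88 (159) in wild-type mice. It was detected in 3 transgenic and 4 wild-type mice (difference 0.29, adjusted p = 0.839), and its 3 other probes were not detected. Ikzf1, the Ikaros factor of lymphoid cells, read 10.04 (165), 8.93 (152), 9.62 (147), 9.47 (163) and 9.96 (164) in transgenic and 9.64 (141), 9.51 (142), 9.20 (143) and 9.62 (159) in wild-type mice. Its 3 measured probes differed by 0.11, 0.00 and -0.07 (adjusted p = 0.907 to 0.998). For Coro1a, Ptprc and Ikzf1 mouse 164 or 165 was the top mouse and the genotypes overlapped.

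**Figure D5:**
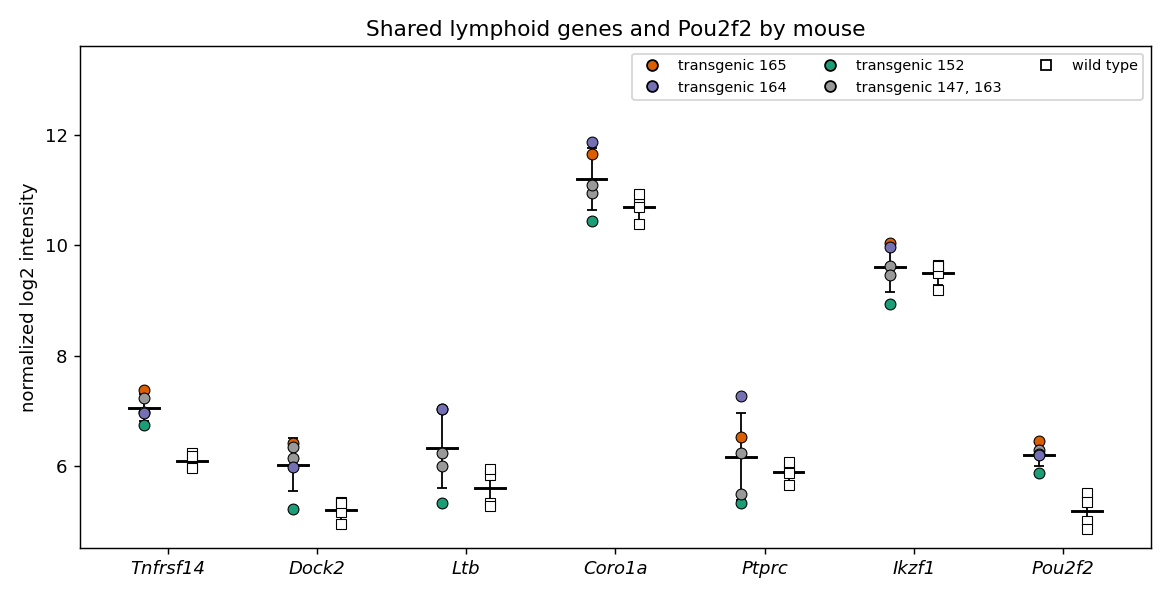
Normalized log2 intensity (y axis) of the 6 shared lymphoid genes and Pou2f2 in each mouse, transgenic as circles and wild type as squares, with the mean as a line and the SD as bars. The genotypes separate at Tnfrsf14 and Pou2f2 and overlap at the others. Pou2f2 and Dock2 were measured only through transgenic arrays.

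Measured genes from the list of Tnfrsf14 ligands and partners did not separate the genotypes. Tnfsf14, the gene of LIGHT, was detected on 3 arrays at its best probe and Cd160 on 2, too few for the test. Of 11 genes in that list 8 were measured, 5 higher and 3 lower, with a median of 0.09 and none called. After Ltb, the lowest unadjusted p-values belonged to Tnfrsf1b, a TNF receptor (difference -0.31, limma adjusted p = 0.750), and Lta, the soluble lymphotoxin (0.27, adjusted p = 0.807). Btla, the inhibitory receptor that binds Tnfrsf14, read 6.73 to 8.21 in transgenic and 7.32 to 8.06 in wild-type mice (difference -0.20, adjusted p = 0.858).

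Further genes of each lineage, outside the 40, also gave no call. Of 33 further T and natural killer genes 14 were measured, 10 higher and 4 lower (median 0.36). Il2ra, the IL-2 receptor chain CD25, was detected in 4 transgenic mice and no wild-type mouse and read 5.42 to 5.84 against 5.08 to 5.34, at least 1.04-fold higher (limma adjusted p = 0.299). Like Pou2f2 and Dock2 it was kept only through transgenic arrays, so a higher reading there was fixed in part by the filter. Cd69, an early activation antigen, differed by 0.50 (limma adjusted p = 0.481) and Ccr7, the homing receptor of naive T cells, by 0.53 (adjusted p = 0.523). This Cd69 probe was highest in mouse 147 at 6.50. Another Cd69 probe, detected on 2 arrays, read 7.05 in mouse 165 and 6.91 in mouse 164 against 5.04 to 5.64 elsewhere. The T cell and natural killer chemokine gene Ccl5, named after its values were seen, read 11.70 in mouse 164 and 10.34 in mouse 165 against 8.14 to 9.62 in the other mice. Mouse 164 was the highest mouse at 5 of these 14 genes.

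Of 26 further B and plasma cell genes 20 were measured, 16 higher and 4 lower (median 0.26), and mouse 165 was the highest mouse at 11 of them, against 17.9% of all genes. Fcer2a, the low-affinity IgE receptor of B cells, read 6.72 to 7.33 in transgenic and 6.33 to 6.68 in wild-type fat (difference 0.57, limma adjusted p = 0.351). Cd72, a B cell coreceptor, read 6.71 to 7.65 against 5.27 to 6.69 (difference 1.05, adjusted p = 0.358). Irf4, a factor of plasma cells, activated T cells and adipocytes, ran the other way: it read 7.90 to 8.90 in transgenic mice and 9.62 (141), 11.24 (142), 10.98 (143) and 13.37 (159) in wild-type mice (difference -2.80, adjusted p = 0.209). The groups did not overlap at these 3 of the 20 measured genes, 2 higher and 1 lower, against 1.96% and 1.37% of all measured genes. These 3 were named for the lowest unadjusted p of their list, which makes such separation likely.

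Of 22 further genes found across leukocytes 16 were measured, 11 higher and 5 lower (median 0.13). Rac2, the leukocyte Rac GTPase, differed by 0.85 (limma adjusted p = 0.566). Inpp5d, which encodes the phosphatase SHIP, read 6.57 to 7.40 in transgenic and 7.66 to 9.45 in wild-type mice (difference -1.50, adjusted p = 0.299). Cd52, a surface antigen of lymphocytes that epididymal epithelium also makes, read 10.08 to 11.71 in transgenic mice and 12.12 (141), 9.97 (142), 12.43 (143) and 15.95 (159) in wild-type mice (difference -1.74, adjusted p = 0.603). Its top mouse, 159, was not the top mouse for the CD3 genes, Cd79b or Coro1a. The part of the epididymal signal in Cd52 and Inpp5d was not tested.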

How the data were processed

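Epididymal fat RNA of 5 transgenic and 4 wild-type mice was used, 1 array per mouse, and each mouse number occurs once. The labels' protocols name Trizol and RNeasy columns for the RNA, and biotin for its label. The deposited series matrix holds intensities on a linear scale, and the deposited table called non-normalized holds another set of intensities with Illumina's detection p-value for each probe, per the file headers. How the submitters normalized, and the slide of each array, are not stated in the sources. Ordered by the series matrix intensities the detection p never rose with the signal, whereas ordered by the other table it rose at 5386 to 6789 places on 8 arrays (the tables were identical for mouse 147), so the series matrix intensities were used.

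Background correction and quantile normalization used limma's neqc (version 3.58.1 under R 4.3.3, offset 16, log2 scale). Of 45281 probes, 23354 reached a detection p below 0.05 on 4 or more arrays and were fitted with lmFit and eBayes, with Benjamini-Hochberg adjustment over all of them. Where several probes of a gene were kept, the one with the top mean level represents it, and for lymphocyte members the others are stated. Levels of different probes are not comparable in amount. The steps were tested on simulated data. Annotation named 34885 probes, of which 34807 matched a RefSeq gene by Entrez identifier. Motifs were counted with Python 3.11.15.

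The members, lists and tests were chosen with earlier results of these data known. Mouse-by-mouse values are given for the genes that define T cells, B cells and leukocytes, all shared members, and the 3 T and 3 B members with the lowest unadjusted p; of each further lymphocyte, leukocyte and Tnfrsf14 partner list, the 3 genes with the lowest unadjusted p are named. Any other gene given by mouse was chosen after its values were seen. Alternatives were the background correction, offset, scaling, filter, variance prior, array weights, the other table, median signal as a covariate and each mouse left out. The number of arrays limits the precision.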

Additional observations from a re-analysis of the deposited data

Results flagged for a closer look

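In 52 groups of values (26 measured lymphocyte genes in 2 genotypes), 2 held a mouse whose gap to the nearest of its group was large against the group's whole range; chance flags about 5% of groups. Gata3 read 8.97 in transgenic mouse 152, while the other transgenic mice read 5.77 to 6.08. Cd3e read 7.15 in wild-type mouse 159, while the other wild-type mice read 6.34 to 6.44.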

How the results depend on the processing

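Results held their direction and side of the threshold in most settings: of 95 recomputed counts and medians 79 stayed within the limits set, and of the gene differences 467 kept sign and side, 11 newly passed the threshold and 16 changed sign. 5 members, all higher, were called without normalization between arrays (Nkg7, Cd27, Pou2f2, Tnfrsf14 and Dock2), where the median of all genes was itself 0.42 higher, and 3 (Tnfrsf14, Pou2f2 and Dock2) with array weights. With one mouse left out, 0 to 3 members were called, the 3 being the same genes without mouse 152. Over its 19 alternatives the limma adjusted p of Tnfrsf14 ran from 0.0140 to 0.623, and over 18 that of Pou2f2 from 0.00919 to 0.483. Pou2f2 and Dock2 were kept only through transgenic arrays, so their passing values lend no support to a difference. The median of T members was 0.26 without background correction and 0.79 without normalization between arrays, and that of shared members 0.30 and 0.97. The median of B members was 0.39 without background correction, 1.21 without normalization between arrays and 1.28 with median signal as a covariate, and from 0.35 (without mouse 165) to 1.12 (without mouse 142) with a mouse left out. Over all probes, 16 were called, against 1332 without normalization between arrays, 1 with detection required on all 9 arrays, 9 with no filter, 353 with array weights, and 9 to 49 with a mouse left out. Signs turned for genes whose difference was small: Cd8b1 (0.14), Zap70 (0.30) and Il7r (0.26) without normalization between arrays; Cd28 (-0.082), Zap70 (0.039) and Il7r (0.11) with array weights; Cd28 (-0.18), Zap70 (0.042) and Il7r (0.48) with the covariate; and at other probes of Cd8b1 (1.08), Zap70 (0.21) and Ikzf1 (-0.069). With a mouse left out, Il7r ran from -0.46 to 0.14 (above 0 without mouse 152 or 159), Cd28 from -0.050 (without 159) to 0.35 and Zap70 from -0.26 to 0.011 (without 143). The cause was not tested. Genes near background are limited by signal: 26 of 75 member probes were detected on no array. No paired analysis was possible because the mouse numbers are not shared between genotypes.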
